A study of Mus musculus with 4 samples.

Results

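The mouse mitochondrial genome is represented in the deposited gene tables by 37 rows, all rows placed on chromosome M, out of 50600 rows in all. They are 13 protein rows, 2 rRNA rows and 22 tRNA rows, and the strand given in the tables puts 28 of them on the plus strand and 9 on the minus strand. The plus strand holds 12 protein rows, both rRNA rows and 14 tRNA rows, and the minus strand holds mt-Nd6 and 8 tRNA rows. RNA came from primary mouse T helper 2 (Th2) cells of strain C57BL/6NJ, with no treatment, genotype or comparison group given beyond the cell type, and the tables' headers place them at 48 hours of a time course of Th1 and Th2 cells. The age is unknown and the sex was not collected. There were 4 libraries of 1 group, labelled biological replicates 1 to 4, with separate biosamples but 1 donor identifier. The labels do not say whether the cells were separate cultures, so the spread and p-values below measure the differences between these samples, which may be technical. The labels call the assay total RNA, but the protocol they link to has poly(A)+ in its name.

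Mitochondrial DNA is transcribed from both strands into long RNAs that span many genes. The tRNAs lie between most of the rRNA and protein genes, and their excision releases the other RNAs. The proteins are subunits of respiratory complex I (the Nd genes), complex III (Cytb), complex IV (the Co genes) and the ATP synthase (the Atp genes), and mRNAs and rRNAs of the gene-rich strand are usually far more abundant than the mRNA of Nd6.

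The tables gave 2271993, 2112190, 2204423 and 1785970 counts of read pairs in replicates 1 to 4, and 3 counts, the limit that a count of 0 allows, were 1.32 to 1.68 CPM (counts scaled to a common library total). Of 8 Th2 markers 7 were above 3 counts in all libraries and Il5 was at 0, and 8 of 8 T cell markers were above 3 counts. Il4 had 38, 27, 37 and 24 counts. The B cell markers Cd79b and Ms4a1, the macrophage marker Adgre1, the natural killer markers Ncr1 and Klrb1c and the globin rows Hba-a1 and Hbb-bs were at 0, while the B cell marker Cd79a had 14, 8, 4 and 7 counts. Summed levels were 161 to 221 CPM for the Th2 list, 618 to 723 for the T cell list, 1.12 to 1.89 for the CD8 list, 599 to 663 for the macrophage list, 0 to 0.473 for the natural killer list and 13.4 to 17.2 for the erythroid list. The macrophage value came almost wholly from Csf1r (1409, 1363, 1457 and 1066 counts) and the erythroid value from Alas2 (35, 33, 38 and 24 counts), each of which shares exon bases with a gene on the other strand. The same holds for the highest T cell marker, Cd247 (1360, 1364, 1278 and 972 counts). It also holds for the highest Th2 marker, Ptgdr2 (249, 263, 216 and 147 counts). In all, 2 of the 8 T cell markers and 5 of the 8 Th2 markers share exon bases in this way. Across the whole tables, rows that share an exon base with a row on the other strand held 93.4% ± 0.855 of the counts (SD, n = 4). A count on a row is therefore given here as the value assigned to that row, and whether it stands for RNA of the row's own strand was not tested.

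Rows of the mitochondrial genome are packed end to end, and the places where the strands meet show how little sequence separates them. Of 36 neighbouring pairs, 9 overlap, 12 touch with no base between them, and the others are 1 to 5 bases apart except mt-Tn and mt-Tc, which are 32 bases apart. The sequences below, in GENCODE vM21 transcripts on mm10, are the overlapping ends of mt-Ti and mt-Tq, the overlapping 3′ ends of mt-Nd5 and mt-Nd6, and the tRNA rows mt-Te and mt-Tp that flank mt-Cytb on the other strand. Each is written 5′ to 3′ on its own strand, and capitals mark the bases that the paired rows share, 3 in the first pair and 14 in the second. They lie at chrM:3706-3774 (mt-Ti, plus), chrM:3772-3842 (mt-Tq, minus), chrM:13506-13565 (mt-Nd5, plus), chrM:13552-13611 (mt-Nd6, minus), chrM:14071-14139 (mt-Te, minus) and chrM:15356-15422 (mt-Tp, minus).
mt-Ti: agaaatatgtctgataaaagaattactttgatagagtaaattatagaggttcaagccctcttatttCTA
mt-Tq: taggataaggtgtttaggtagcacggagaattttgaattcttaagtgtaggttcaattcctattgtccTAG
mt-Nd5, last bases: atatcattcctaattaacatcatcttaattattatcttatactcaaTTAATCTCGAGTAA
mt-Nd6, last bases: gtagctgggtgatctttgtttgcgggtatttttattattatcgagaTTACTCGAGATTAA
mt-Te: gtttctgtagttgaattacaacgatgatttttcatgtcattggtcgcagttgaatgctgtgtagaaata
mt-Tp: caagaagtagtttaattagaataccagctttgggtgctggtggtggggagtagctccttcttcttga

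The 37 rows held 44443, 44805, 41304 and 31459 counts in replicates 1 to 4, which was 1.93% ± 0.151 of all counts (SD, n = 4). In TPM, which also divides by row length, the share was 6.24% ± 0.490. The minus strand carried most of these counts: 84.2%, 83.1%, 78.5% and 78.8% in replicates 1 to 4, with 95% Wilson intervals of 83.8 to 84.5, 82.8 to 83.5, 78.1 to 78.9 and 78.3 to 79.2. The mean was 81.1% ± 2.91, although the minus rows sum to 1068 bp and the plus rows to 14373 bp. The minus-strand share was 80.9% ± 2.93 of protein-row counts and 95.0% ± 2.49 of tRNA-row counts. In both classes replicates 1 and 2 had the higher shares and replicates 3 and 4 the lower ones.

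Per kb of row, the minus strand had 30867 ± 5547 counts and the plus strand 524 ± 66.4 (SD, n = 4). The log2 ratio of these densities, with a pseudocount of 1, was 5.87 ± 0.277 and positive in 4 of 4 libraries (exact two-sided sign-flip test, p = 0.125). A test on 4 libraries cannot go below 0.125, so no such comparison here could pass 0.05. One row set most of the difference in counts. Without mt-Nd6 the minus-strand share was 15.1% ± 2.89, and the log2 density ratio was 2.20 ± 0.327, positive in 4 of 4 libraries (exact sign-flip p = 0.125). The minus rows left are then 8 tRNA rows of 549 bp, while tRNA rows make up 952 of the 14373 bp on the plus strand. That ratio therefore compares classes of rows as well as strands. The strands also differ in base composition, with G at 25.4% of minus-row bases and 12.5% of plus-row bases, and C at 9.93% and 24.3%.

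**Figure D1:**
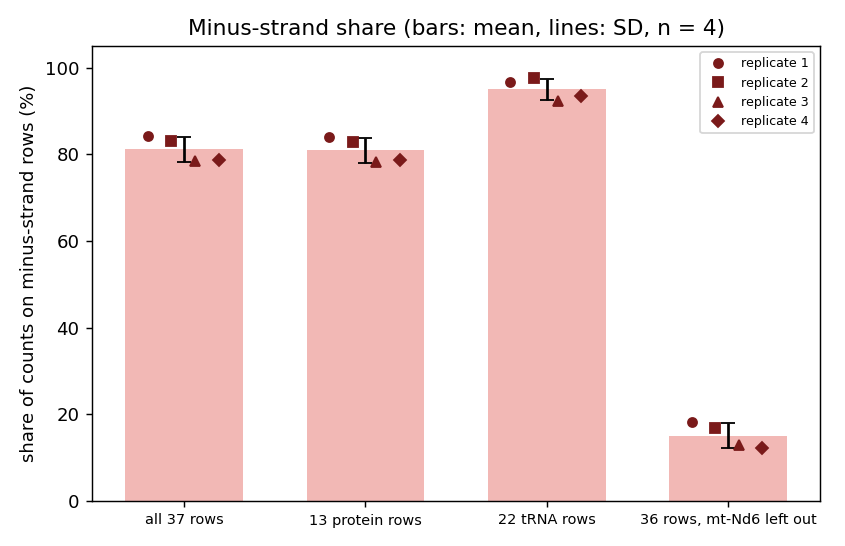
Share of mitochondrial counts on minus-strand rows (%), for all 37 rows, protein rows, tRNA rows and all rows but mt-Nd6; bars are means, lines SD and points the 4 libraries. The shares of the first 3 sets lie between 78.2% and 97.5%, and leaving out mt-Nd6 gives 12.3% to 18.2%.

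The protein row of the minus strand, mt-Nd6 (ENSMUSG00000064368.1, chrM:13552-14070), encodes a membrane subunit of complex I. It had 35832, 35718, 31121 and 23842 counts in replicates 1 to 4, or 15037 CPM ± 1606 (SD, n = 4). That was the fourth highest count of any row in each library, and in TPM the highest row in replicates 1 to 3 and the second highest in replicate 4. It held 77.9% ± 2.69 of all mitochondrial counts and 96.0% ± 0.182 of those on the minus strand. Replicates 3 and 4 were the lowest libraries in counts and in CPM, but the row did not pass the test for variation between libraries described below (edgeR, adjusted p = 0.999879).

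Its plus-strand neighbours were far less dense. mt-Nd5, a large complex I subunit whose last 14 bases lie under the end of mt-Nd6, had 3494, 3721, 4684 and 3298 counts, and mt-Cytb, the mitochondrially encoded subunit of complex III, had 638, 783, 444 and 364. On the log2 scale of counts per kb with a pseudocount of 1, mt-Nd6 stood 4.86 ± 0.305 above mt-Nd5 and 7.01 ± 0.274 above mt-Cytb (SD, n = 4; exact sign-flip p = 0.125 for each, higher in 4 of 4). mt-Te, the glutamate tRNA that touches mt-Nd6 on the same strand, had 244, 191, 192 and 146 counts. Its density was 4.44 ± 0.143 below that of mt-Nd6 on the same scale. The step from mt-Nd6 to mt-Nd5 across the strands was somewhat larger in each library. The log2 density of mt-Nd6 over mt-Nd5 was 5.17, 5.08, 4.55 and 4.67 in replicates 1 to 4. That of mt-Te over mt-Nd6 was -4.28, -4.63, -4.42 and -4.43. The difference between those steps was not tested.

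The minus-strand tRNA rows were read in every library. mt-Tp, the proline tRNA at the far end of the genome, led all tRNA rows with 845, 830, 713 and 420 counts, which was 52.0%, 53.1%, 49.8% and 42.0% of the tRNA counts in replicates 1 to 4. mt-Tq (glutamine) had 265, 274, 229 and 196. mt-Te (glutamate), given above, was lower than mt-Tq in each of the 4 libraries. The cluster of 4 minus tRNAs between mt-Tw and mt-Co1, which carries alanine (mt-Ta), asparagine (mt-Tn), cysteine (mt-Tc) and tyrosine (mt-Ty), had 19 to 58 counts per row and library. mt-Ta had 50, 56, 37 and 42 counts and mt-Tn 22, 37, 26 and 23, with mt-Ta denser in 4 of 4. mt-Tc had 49, 46, 43 and 44 and mt-Ty 58, 56, 39 and 19, and these neighbours changed order between libraries. mt-Ts1, a serine tRNA that overlaps mt-Co1, had 36, 35, 43 and 45. All 8 minus tRNA rows were above 3 counts in all libraries.

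Of the 14 plus-strand tRNA rows, 3 were above 3 counts in every library: mt-Th (histidine) with 23, 18, 50 and 27 counts, mt-Ts2 (serine) with 16, 11, 32 and 19, and mt-Tl2 (leucine) with 7, 4, 9 and 9. These rows follow one another between mt-Nd4 and mt-Nd5. mt-Tt (threonine) had 3, 5, 14 and 8, mt-Tw (tryptophan) 5, 0, 3 and 3, mt-Tv (valine) 0, 0, 2 and 0, mt-Tl1 (leucine) 1, 0, 0 and 0, and mt-Tm (methionine) 0, 1, 0 and 0. The other 6, mt-Tf, mt-Ti, mt-Td, mt-Tk, mt-Tg and mt-Tr, were at 0 in all libraries. The strands overlapped in count in 3 of 4 libraries. In replicate 2 the lowest minus tRNA row (35) lay above the highest plus tRNA row (18), while in replicates 1, 3 and 4 mt-Th (23, 50 and 27) lay above the lowest minus row (22, 26 and 19). In replicate 3 mt-Th exceeded 5 of the 8 minus tRNA rows and mt-Ts2 exceeded 1, and in replicate 4 mt-Th exceeded 2 and mt-Ts2 equalled the lowest. The log2 density ratio of minus over plus tRNA rows was 5.15 ± 0.801, positive in 4 of 4 libraries (exact sign-flip p = 0.125). A tRNA row of 59 to 75 bp is short, so its counts per kb are scaled up from few bases. By default featureCounts also leaves out pairs that touch several rows of one strand. Each plus tRNA row overlaps, touches or lies at most 3 bases from another plus row. By contrast mt-Tp, mt-Tq and mt-Ts1 have no minus row next to them, so the rule does not bear on the strands equally. How far it shapes the tRNA shares and this ratio was not tested.

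**Figure D2:**
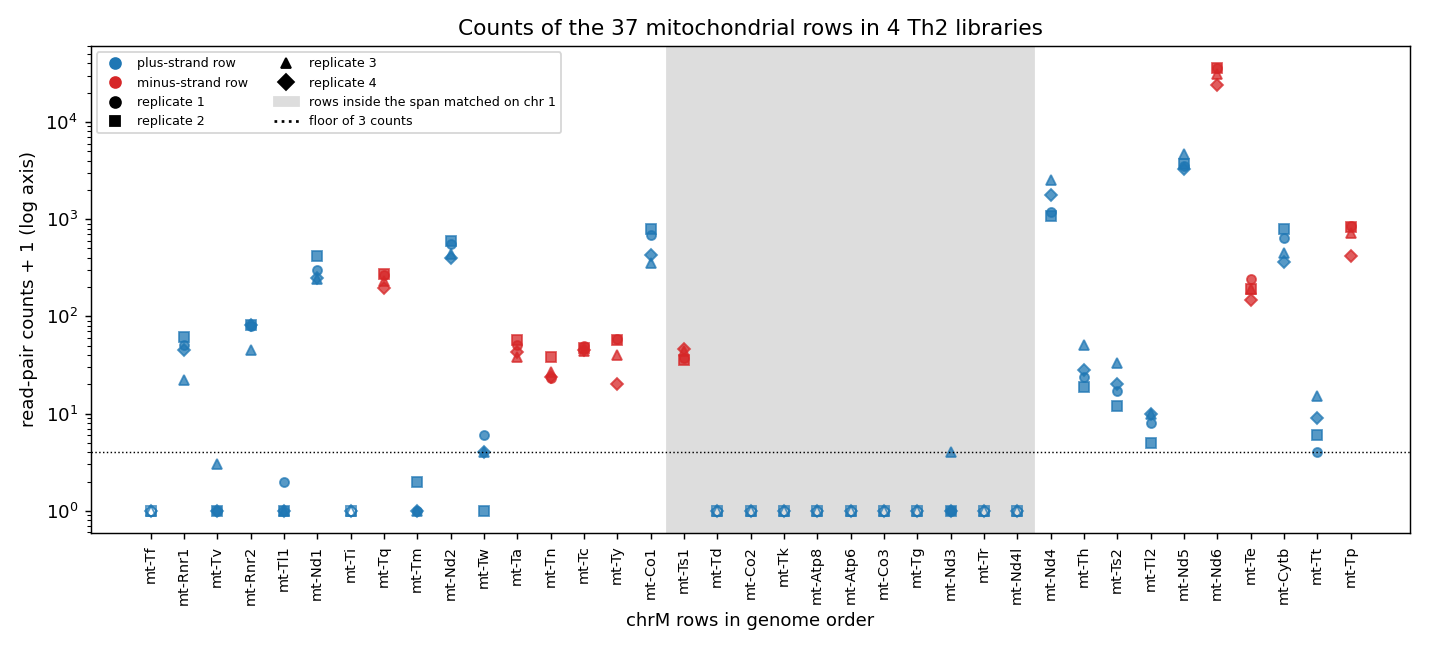
Read-pair counts plus 1 (log axis) of the 37 rows in genome order, 1 point for each of 4 libraries, plus-strand rows in blue and minus-strand rows in red; the dotted line marks 3 counts and the grey band the rows inside the span matched on chromosome 1. mt-Nd6 has 23842 to 35832 counts, and in the band mt-Ts1, on the minus strand, is the one row above 3 counts.

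Where plus and minus rows are neighbours, the minus row was the denser in all 4 libraries in 8 of 9 pairs. The pair of mt-Ty and mt-Co1 was close in replicate 4 (284 and 278 counts per kb), and with the length of mt-Co1 cut to its bases outside the span copied on chromosome 1, described below, mt-Co1 was the denser there (404) and the count was 7 of 9. The exception over whole rows was mt-Co1 and mt-Ts1, whose order was mixed (log2 density of mt-Co1 over mt-Ts1 -0.76 ± 0.713). Against mt-Ti, the isoleucine tRNA with 0 counts in all libraries, mt-Tq was at least 63.5-fold to 88.8-fold higher per library when mt-Ti is set to 3 counts. Against mt-Td, the aspartate tRNA also at 0, mt-Ts1 was at least 11.8-fold to 15.2-fold higher on the same floor. mt-Tp lay a log2 difference of 6.49 ± 1.10 above the touching mt-Tt, and mt-Te 2.57 ± 0.372 above mt-Cytb, both positive in 4 of 4 libraries. The floor of 3 counts allows for counting error alone. On their own strand mt-Ti overlaps mt-Nd1, mt-Tt touches mt-Cytb and mt-Td lies 1 base from mt-Co2. mt-Tq, mt-Tp and mt-Ts1 have no row of their own strand next to them. What leaving out pairs that touch several rows of one strand does to these differences was not tested.

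Along the whole genome, 23 of the 36 neighbouring pairs kept one order of counts per kb in all 4 libraries, 6 were mixed and 7 were equal because both rows were at 0. Among the 27 pairs with a count on either or both rows in each library the share was 85.2%. Of neighbouring rows off the mitochondrial genome it was 87.1%, so a fixed order was about as frequent as elsewhere. Where a row is at 0 in all libraries, as mt-Ti beside mt-Nd1, a count on its neighbour in each library fixes the order. Over the 27 pairs in which a row exceeded 3 counts in some library, the lowest p adjusted for all of them was 0.141 (exact sign-flip test with Benjamini-Hochberg adjustment).

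The plus-strand protein and rRNA rows had their own profile. The rRNA rows, mt-Rnr1 and mt-Rnr2, of the small and large ribosomal subunits, had 50, 61, 21 and 44 counts and 78, 80, 44 and 81 counts. They held 0.289% ± 0.0995 of mitochondrial counts. Their densities had no fixed order, with a log2 ratio of 0.10, 0.34, -0.30 and -0.14 in replicates 1 to 4 and a mean of -0.00061 ± 0.282 (SD, n = 4; exact sign-flip p = 1.0, positive in 2 of 4).

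The complex I rows that follow the rRNA rows were denser. mt-Nd1 had 299, 415, 244 and 245 counts, a log2 density 2.80 ± 0.400 above mt-Rnr2, and mt-Nd2 had 556, 598, 437 and 397, a further 0.62 ± 0.164 above mt-Nd1 (each in 4 of 4, exact sign-flip p = 0.125). mt-Co1, the catalytic subunit of complex IV, had 687, 788, 355 and 429 counts. It was 0.45 ± 0.309 below mt-Nd2 in log2 density over the whole row. At the other end of the strand mt-Nd4, a complex I subunit, had 1185, 1077, 2519 and 1758 counts, and its log2 density was 1.69 ± 1.10 above mt-Co1. mt-Nd5, the densest plus row over whole row lengths, stood 0.88 ± 0.456 above mt-Nd4, an order that turns when the copied bases of mt-Nd4 are left out (below), and mt-Cytb -2.14 ± 0.555 relative to mt-Nd5. The stretch from mt-Nd4 to mt-Nd5, 5 rows in all, held 67.1%, 63.9%, 82.3% and 76.5% of plus-strand counts.

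Between mt-Co1 and mt-Nd4 lies a run of plus-strand rows with almost no counts. Of the 37 rows, 11 had 0 counts in all 4 libraries, against 65.8% of all rows in the tables, and all 11 are on the plus strand. They are mt-Co2 and mt-Co3 of complex IV, mt-Atp6 and mt-Atp8 of the ATP synthase, mt-Nd4l of complex I and the 6 tRNA rows named above. Of these tRNA rows, mt-Tf and mt-Ti lie before mt-Co1, outside the run. mt-Nd3, a complex I subunit, had 0, 0, 3 and 0. With 0 counts a level of up to 1.32 to 1.68 CPM in a library cannot be told from absence.

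Most protein rows of the same stretch have a near-identical counterpart in the nuclear genome. On the minus strand of chromosome 1, 7 pseudogene rows (chr1:24611535-24616197, mm10) match chrM:6390-11042, a span of 4653 bases, in the same order. They are Gm28439 (mt-Nd4, 876 bases), Gm10222 (mt-Nd4l, 294 bases), Gm28437 (mt-Co3, 783 bases), Gm10925 (mt-Atp6, 678 bases) and Gm28661 (mt-Co2, 681 bases), each identical over those bases, with Gm28438 (mt-Nd3, 345 bases, 99.7% identity) and Gm29216 (mt-Co1, 483 bases, 99.8%). Only transcripts were compared. The tRNA rows of the span (mt-Ts1, mt-Td, mt-Tk, mt-Tg and mt-Tr) had no match among them, and the longest identical run of mt-Atp8 was 43 of its 204 bases, so whether the copy holds those rows was not tested. The differences of the matched stretches are T3C in Gm28438 and A1066T in Gm29216, each giving the mitochondrial base, its position from the start of the mitochondrial row, and the base of the copy. The first is shown in capitals at the start of mt-Nd3 (chrM:9459-9518, plus) and of Gm28438 (chr1:24613060-24613119, minus), as the one base at which their matched stretches differ.
mt-Nd3, first bases: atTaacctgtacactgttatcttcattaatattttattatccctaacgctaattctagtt
Gm28438, first bases: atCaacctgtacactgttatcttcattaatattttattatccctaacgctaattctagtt

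Of the 10 plus-strand rows that lie inside the span, 5 have a near-identical copy among the transcripts, and 4 of these were at 0 in all libraries, with mt-Nd3 the exception. The other 5 rows, mt-Atp8 and the 4 plus-strand tRNAs without a match, were all at 0 too. Of the 18 plus-strand rows outside it or partly outside it, mt-Tf and mt-Ti were at 0 in all, and together these 18 rows had 7042, 7562, 8858 and 6682 counts. The minus-strand row inside the span, mt-Ts1, had 36 to 45 counts, as given above. Among the copies, Gm28438 had 89, 77, 125 and 78 counts, while each of the other 6 had 0 to 2 per library. The deposited command had no option to count pairs that map to several places. Whether pairs from the span were lost in that way was not tested, since reads were not analysed here. The reference sequences come from strain C57BL/6J and the cells from C57BL/6NJ, and which base the RNA carried was not tested. Over all rows, 51 rows off chromosome M held a match to a mitochondrial row. Of those 45 were pseudogenes, 34 of them at 0 in all libraries, and 3 (Gm28438, Gm48141 and Gm48142) above 3 counts in every library. Of all rows, 65.8% were at 0 in all libraries, so 34 of 45 is not read as a trait of the copies.

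**Figure D3:**
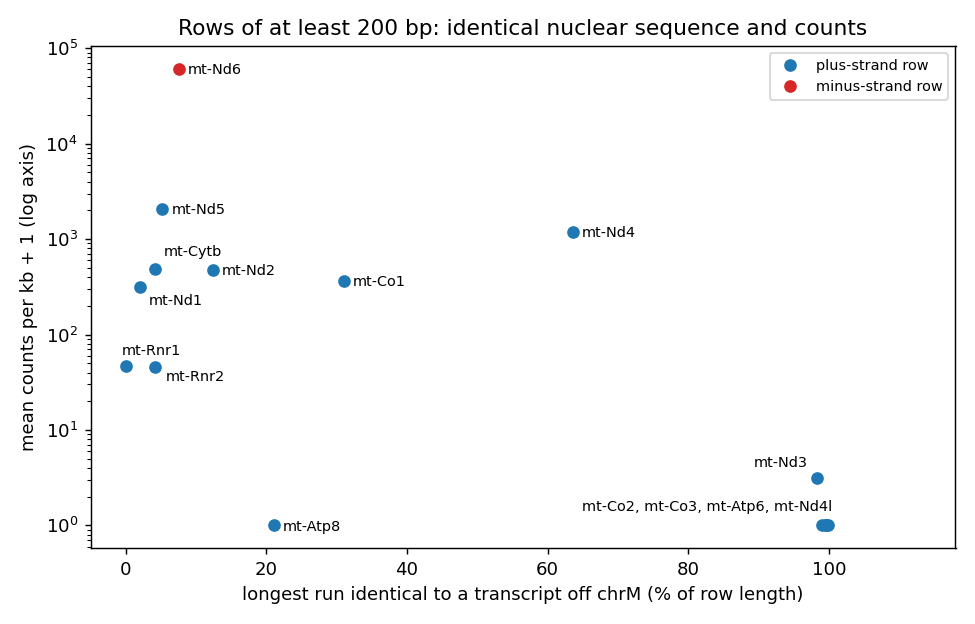
Mean counts per kb plus 1 (log axis, n = 4) of rows of at least 200 bp against their longest run identical to a transcript off chromosome M, in percent of row length; plus rows in blue, mt-Nd6 in red. mt-Co2, mt-Co3, mt-Atp6 and mt-Nd4l, at 0 counts, and mt-Nd3 lie at the right, mt-Atp8, at 0 counts, at the lower left, and mt-Nd4 and mt-Co1 are partly copied.

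The partly copied rows change place when the copied bases are left out of their length. If all counts of mt-Nd4 fall on its 502 bases outside the span, its density was 2361, 2145, 5018 and 3502 counts per kb, or 3256 ± 1317 (SD, n = 4), against 1186 ± 480 over the whole row. mt-Nd4 was then denser than mt-Nd5 in 4 of 4 libraries, with a log2 difference of mt-Nd5 over mt-Nd4 of -0.57 ± 0.456 (exact sign-flip p = 0.125), the reverse of the order over whole rows. For mt-Co1 the density over 1062 bases was 532 ± 194, and the log2 difference of mt-Nd2 over mt-Co1 became -0.096 ± 0.309, positive in 1 of 4 (exact sign-flip p = 0.5). mt-Nd4 stayed above mt-Co1 in 4 of 4 libraries, by 2.60 ± 1.10.

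Variation between libraries was tested for all genes at once, by the goodness of fit of a negative binomial model in edgeR. The model allows for counting error and for the spread usual among genes of similar abundance. A row that does not pass can therefore still vary beyond counting. For mt-Nd6 the coefficient of variation of CPM was 10.7%, against 0.562% for counting alone. Of 5064 genes tested, 23 (0.454%) passed an adjusted p of 0.05. Of the 37 mitochondrial rows, 19 had enough counts to be tested and 3 passed. All 3 are plus-strand protein rows, and none of the 9 minus-strand rows passed. With 0.454% of all tested genes passing, none among 9 rows says little about the strand. The CPM of mt-Ty, on the minus strand, had a larger coefficient of variation than mt-Co1 (33.5%) and mt-Cytb (30.3%), which passed. The spread usual at its abundance was also larger than at theirs. The remaining minus-strand rows had smaller coefficients than mt-Co1 and mt-Cytb.

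mt-Nd4 had the lowest p of the 3, with a change from 522 and 510 CPM in replicates 1 and 2 to 1143 and 984 in replicates 3 and 4 (edgeR, adjusted p = 8.47e-19; 8.31e-19 to 4.43e-07 under the alternatives). mt-Co1 went the other way, with 302 and 373 CPM in replicates 1 and 2 and 161 and 240 in replicates 3 and 4 (edgeR, adjusted p = 8.97e-05). mt-Cytb had 281, 371, 201 and 204 CPM (edgeR, adjusted p = 0.0222). The calls of mt-Co1 and mt-Cytb rest on single libraries: without replicate 2 the adjusted p was 0.153 and 0.999, and without replicate 3 it was 0.999876 and 0.234. Without the filter on low counts it was 0.482 and 0.808, and the mt-Cytb call was also lost with a common dispersion (0.147).

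In each of the 10 tested plus-strand rows replicate 3 was at one end of the range. It had the highest CPM of the 4 libraries for mt-Nd4, mt-Th, mt-Ts2 and mt-Nd5, which are neighbours but for mt-Tl2, and the lowest for mt-Rnr1, mt-Rnr2, mt-Nd1, mt-Nd2, mt-Co1 and mt-Cytb. mt-Th had 10.1, 8.52, 22.7 and 15.1 CPM (edgeR, adjusted p = 0.642) and mt-Rnr1 22.01, 28.9, 9.53 and 24.6 (0.492). On the minus strand, replicate 2 had the highest CPM in 6 of the 9 rows and replicate 4 the lowest in 4. mt-Tp had 372, 393, 323 and 235 CPM (edgeR, adjusted p = 0.657) and mt-Ty 25.5, 26.5, 17.7 and 10.6 (0.999879).

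**Figure D4:**
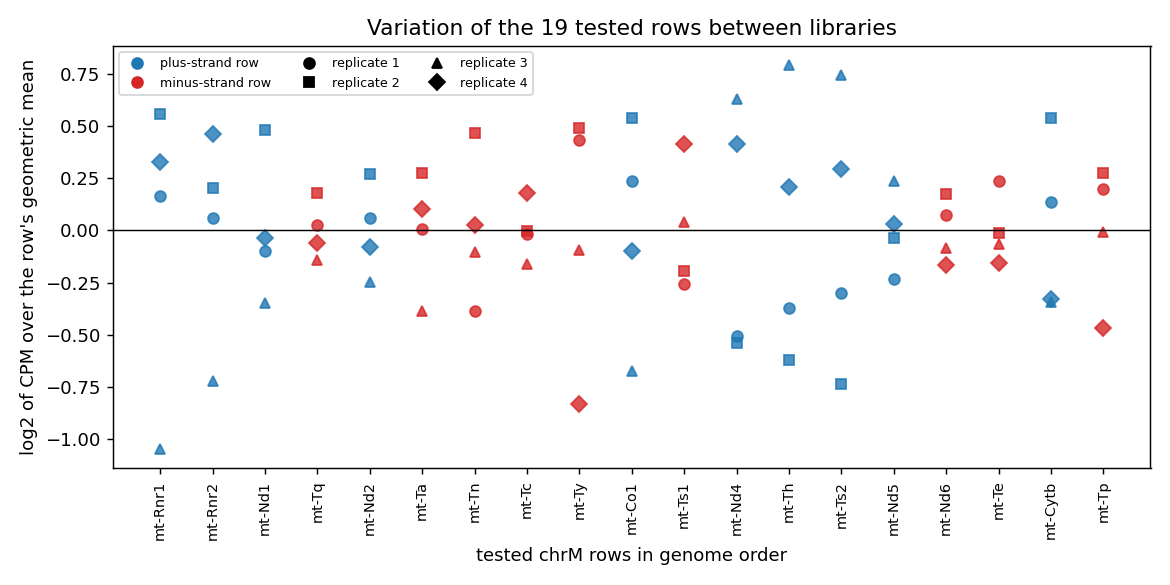
CPM of each of the 19 tested rows relative to its geometric mean over the 4 libraries (log2), in genome order, plus-strand rows in blue and minus-strand rows in red, with a symbol per library. Replicate 3 (triangles) is at the top for mt-Nd4, mt-Th, mt-Ts2 and mt-Nd5 and at the bottom for mt-Rnr1, mt-Rnr2, mt-Nd1, mt-Nd2, mt-Co1 and mt-Cytb.

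The nuclear genes that act on mitochondrial RNA were covered only in part by the same test. Of 36 genes for transcription and RNA processing, 36 had rows, 18 were above 3 counts in all libraries, 12 were tested and 0 passed (lowest edgeR adjusted p = 0.999879), and with 0.454% of all tested genes passing, a count of 0 among so few says little about the list. The highest by mean TPM were Slirp, which binds mitochondrial mRNA, at 992, Ptcd1 at 442, the RNA-binding kinase-like gene Fastk at 133, Trnt1, which adds CCA ends to tRNAs, at 94.8, and 1110008L16Rik at 44.95, and each of these 5 shares exon bases with a gene on the other strand. Of 9 measured genes for mitochondrial DNA maintenance, 9 were above 3 counts in all libraries, 4 were tested and 0 passed. Their highest were the exonuclease gene Mgme1 at 201 TPM, the primase gene Primpol at 41.6, the polymerase gene Polg at 36.5, its accessory subunit Polg2 at 9.24 and Rnaseh1 at 4.56. Mgme1, Primpol, Polg and Polg2 share exon bases with a gene on the other strand, and Rnaseh1 does not.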

How the data were processed

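The values used are the authors' raw counts of read pairs. Per the file headers, pairs with both ends aligned were assigned to exons of GENCODE vM13 (mm10) by featureCounts 1.4.6-p4, strand setting 1, and added up over each gene. STAR appears in the name of its input; its version is not stated in these sources. Row lengths in bp come from the same deposited tables. CPM, TPM and counts per kb were computed from these. GENCODE vM21 gave names, types and transcript sequences, and 224 of 50600 rows had no match there; the 37 mitochondrial rows have the same coordinates in both. Copies were found with BLAST+ 2.17.0. The members and gene lists were chosen with earlier results of these data known. The named genes are the 37 rows and, for each list, the 5 highest by mean TPM and any that varied; the copies and single markers were chosen after their values were seen.

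Ratios used log2 of counts per kb with a pseudocount of 1 and exact two-sided sign flips over 4 libraries. Intervals (95%, Wilson) and the floor of 3 counts reflect counting error alone, as pairs carry no molecular identifier and need not be separate molecules. The test of variation between libraries ran in R 4.3.3 with edgeR 4.0.16 and limma 3.58.1, using TMM factors, filterByExpr, trended dispersion and Benjamini-Hochberg adjustment, and was also tested on simulated data. DESeq2 1.42.0 gave alternative size factors. The other steps used Python 3.11.15 with SciPy 1.17.1, pandas 2.3.3 and numpy 2.4.6, and figures Matplotlib 3.10.9. Alternatives were other row sets, another pseudocount (0.1), other scalings, filters and dispersions, and leaving out each replicate; those without rows or bases inside the copied span, or with the copies added, were chosen after the data were seen. The summed level of the B cell list is not reported here.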

Additional observations from a re-analysis of the deposited data

Results flagged for a closer look

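In groups of 4 values, 5 of 59 results had 1 library far from the other 3 by Dixon's test. Chance flags about 1 in 20 groups of continuous values. A row with counts in 1 library only is always flagged, so the 5 of 59 cannot be set against that rate. mt-Tv stood at 0.907 CPM in replicate 3, mt-Tl1 at 0.44 in replicate 1, mt-Tm at 0.473 in replicate 2 and mt-Nd3 at 1.36 in replicate 3, with 0 counts in the other libraries, and each of these values comes from 1 to 3 counts. The share of plus-strand counts on mt-Nd5 was 52.9% in replicate 3 and 49.2% to 49.6% in the others.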

How the results depend on the processing

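Of 113 alternative values, 92 stayed near the main value by the rule set for their kind. Shares had to lie within the SD of the main value, and counts of rows, pairs or genes within a fixed fold. Ratios had to keep their sign, as their sign-flip p could not pass 0.05 in any setting. Adjusted p-values had to stay on the same side of 0.05. The minus-strand share was 15.1% without mt-Nd6, and the mitochondrial share was 6.24% as TPM. The order of neighbours was the same in all libraries in 8 of 14 pairs of rows of at least 200 bp and in 15 of 27 pairs on one strand. Both sets hold fewer pairs than the main 36, and both keep pairs with both rows at 0, which have no order. All 7 such pairs of the main set are on one strand, so these fractions do not show a less stable order within a strand. The log2 ratio of the rRNA rows turned to 0.10 without replicate 3 and 0.045 without replicate 4, and ranged from -0.11 to 0.10 when each library was left out. Genes varying between libraries numbered 15 with no filter on low counts and 7 (without replicate 4), 12 (without replicate 3) to 20 with a library left out, and mitochondrial rows 1 with no filter and 1 to 3 with a library left out. With row lengths that leave out the copied bases, the log2 density difference turned to -0.57 for mt-Nd5 over mt-Nd4 and -0.096 for mt-Nd2 over mt-Co1. With each library left out, the minus-strand share ranged from 80.1% to 82.0% and the log2 density ratio from 5.77 to 5.95. No paired analysis was possible because the series has 1 group. Depth limits rows under 3 counts per library, and 1 group allows no contrast.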
